A study of Drosophila melanogaster with 4 samples.

Results

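The 290 transfer RNA genes on the chromosome arms of Drosophila melanogaster were examined for HDAC3 peaks, out of 18164 annotated genes on these arms. All genes that the Ensembl annotation classes as tRNA were taken, with no use of the peaks, and a gene was counted as having a peak when a peak overlapped it or lay within 500 bp of it. CUT&Tag, in which an antibody brings a transposase to the protein it binds so that the DNA nearby is cut and sequenced, had been run on 2- to 4-h-old whole embryos. In the first round, w1118 embryos (a laboratory strain with no transgene named in the labels) were profiled with a rat HDAC3 antibody and with a rabbit HDAC3 antibody. In the second round, w1118 embryos and tub-GAL4/shRNA HDAC3 embryos were profiled with the rat antibody. In the latter, the tub-GAL4 driver expresses a short hairpin against HDAC3 in the mother, so that the knockdown acts on the maternal supply. The w1118 embryos carry neither the driver nor the hairpin, and loss of HDAC3 and the difference in genotype cannot be told apart.

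Each of the 4 combinations of round, genotype and antibody was 1 library, so no spread can be given within a combination. The labels call each second-round library a second replicate, so the w1118 rat libraries of both rounds are replicates by label. They were kept apart, and gave 102 and 13 tRNA genes with a peak. No comparison between libraries was tested. The percentages are given with 95% exact binomial (Clopper-Pearson) intervals that cover counting error only. A count of 0 is given with the share that 3 counts would make, which also covers counting error only. Genes of a cluster can share a peak, which makes these intervals too narrow. The lists held 6129, 3448, 1038 and 18 peaks on the arms for the first-round rat, first-round rabbit, second-round w1118 and HDAC3 shRNA libraries. Read numbers are not part of the lists, so the depth behind them is unknown. Whole embryos were used, so a peak in a few cells and a weak peak in all cells cannot be told apart.

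HDAC3 is the histone deacetylase of the SMRTER corepressor complex, and is best known from genes transcribed by RNA polymerase II. Transfer RNA genes are transcribed by RNA polymerase III, from a promoter that lies inside the transcribed sequence. It consists of the A box and the B box, which the factor TFIIIC binds; TFIIIC then places TFIIIB just before the start of the gene, and TFIIIB recruits the polymerase. Most tRNA genes exist in several identical copies, often side by side, and their products carry each amino acid to the ribosome.

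The sequences of 7 of the genes described below, each from a different family of identical copies, are shown. The copies of a family share every base and, in all of these families but that of Glu-CTC-3-4, differ in their peaks. They are given 5′ to 3′ on the strand of the gene, from the RefSeq copy of assembly release 6, which has the coordinates of dm6. Capitals mark GGTTCGA or GGTTCAA, the core of the B box; Ala-AGC-2-2 holds neither.
Ala-AGC-2-2, chr3R:17619738-17619810, plus strand: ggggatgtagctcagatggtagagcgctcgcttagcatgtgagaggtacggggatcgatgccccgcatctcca
Pro-TGG-1-2, chr3R:17619961-17620032, plus strand: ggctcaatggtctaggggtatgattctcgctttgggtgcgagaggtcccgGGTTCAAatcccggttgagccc
Lys-TTT-2-3, chr3R:6821789-6821861, plus strand: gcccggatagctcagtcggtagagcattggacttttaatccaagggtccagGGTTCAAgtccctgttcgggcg
Arg-TCG-2-3, chr3R:8861880-8861952, plus strand: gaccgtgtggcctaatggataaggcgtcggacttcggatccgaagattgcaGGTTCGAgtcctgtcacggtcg
Asp-GTC-1-11, chr3R:24555302-24555373, plus strand: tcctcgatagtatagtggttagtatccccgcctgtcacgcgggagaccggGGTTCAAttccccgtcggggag
Cys-GCA-1-1, chr3L:3095737-3095808, plus strand: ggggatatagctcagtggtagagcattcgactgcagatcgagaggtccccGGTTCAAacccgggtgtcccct
Glu-CTC-3-4, chr3L:1397695-1397766, plus strand: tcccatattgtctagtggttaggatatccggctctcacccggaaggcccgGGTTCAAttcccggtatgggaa
Lys-TTT-2-3 has 5 identical copies, of which 4 had a peak with each antibody in the first round and 2 in the second round. Arg-TCG-2-3 has 4 copies, of which 2 had a peak in the second round. Asp-GTC-1-11 has 12 copies, of which 4 had a rat peak and 2 a rabbit peak, and Glu-CTC-3-4 has 9 copies, none of which had a peak in any list.

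The stretch from Ala-AGC-2-2 to Pro-TGG-1-2 shows where peaks began and ended. It is chr3R:17619738-17620032, plus strand, with the bases of both genes in capitals:
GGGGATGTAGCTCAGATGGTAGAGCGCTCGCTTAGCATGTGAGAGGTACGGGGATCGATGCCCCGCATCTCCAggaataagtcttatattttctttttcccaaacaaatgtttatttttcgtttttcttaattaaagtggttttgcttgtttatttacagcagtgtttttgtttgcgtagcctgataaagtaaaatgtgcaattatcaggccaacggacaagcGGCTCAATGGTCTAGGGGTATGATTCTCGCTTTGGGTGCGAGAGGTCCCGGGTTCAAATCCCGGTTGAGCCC
The rat peak ran from 17619781 to 17619978 with a fold enrichment over local background of 4.37. The rabbit peak ran from 17619800 to 17620002 with a fold enrichment of 4.56. Both peaks thus began inside the first gene and ended inside the second, and both covered the whole spacer between them.

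The members were short and repeated. Their lengths were 71 to 186 bp with a median of 73 bp, and 16 of them had an intron. They had 95 distinct sequences, of which 43 occurred in at least 2 copies, and 238 of the 290 genes had an identical copy elsewhere. The B box core GGTTCGA was present in 145 genes and GGTTCAA in 81. With clusters defined as runs of genes at most 5000 bp apart, 214 genes lay in 68 clusters and 76 were single. Of all members, 134 lay inside a protein-coding gene and 33 within 500 bp of a protein-coding transcription start site (TSS).

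HDAC3 peaks lay at 102 tRNA genes in the first-round rat library and at 71 in the rabbit library. In the second round they lay at 13 in the w1118 library and at none in the HDAC3 shRNA library, whose list held 18 peaks on the arms. In the rat list 102 of 290 tRNA genes had a peak (35.2%, interval 29.7 to 41.0), against 29.7% of all genes on the arms. In the rabbit list 71 tRNA genes had one (24.5%, interval 19.6 to 29.9), against 25.0% of all genes. In the second-round w1118 list the count was 13 (4.48%, interval 2.41 to 7.54), against 6.49% of all genes. In the HDAC3 shRNA list it was 0 of 290, which allows a share of up to 1.03%, against 0.105% of all genes. Counted over the whole gene, tRNA genes were therefore close to the background.

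Protein-coding genes are far longer than tRNA genes and have more room for a peak, so the distance was also taken from the start of each gene alone. Measured this way, 34.1% of tRNA genes had a rat peak, against 21.0% of all genes and 22.4% of protein-coding genes. The rabbit values were 24.1% of tRNA genes, 18.8% of all genes and 21.2% of protein-coding genes. In the second-round w1118 list they were 4.14% of tRNA genes and 3.86% of all genes, and in the HDAC3 shRNA list 0 tRNA genes and 0.0385% of all genes. The interval of the tRNA genes was 28.7 to 39.9 in the rat list and 19.3 to 29.5 in the rabbit list. It lay above the value of all genes in both, though in the rabbit list it took in that of protein-coding genes. In the second-round list it took in the value of all genes. Neighbouring tRNA genes share peaks, so each cluster or single gene was also counted once, over the whole gene. A rat peak was then present at 31.2% of 144 (interval 23.8 to 39.5) and a rabbit peak at 18.8% (interval 12.7 to 26.1). Over the whole gene, all genes on the arms stood at 29.7% and 25.0%, and the intervals took in these values.

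Most of these peaks were away from protein-coding promoters, as were most tRNA genes. Of the 290 genes, 33 lay within 500 bp of a protein-coding TSS. The peaks were picked for lying near these genes, so the comparison with all peaks cannot separate HDAC3 binding from gene location. The 102 tRNA genes shared 50 distinct rat peaks, of which 9 (18.0%, interval 8.58 to 31.4) lay within 500 bp of a protein-coding TSS, against 46.0% of all rat peaks. Of the 29 distinct rabbit peaks at tRNA genes, 6 did (20.7%, interval 7.99 to 39.7), against 66.7% of all rabbit peaks. Of the 8 second-round w1118 peaks 1 did, at the start of CG30389. At least 1 peak over 500 bp from a protein-coding TSS was present at 82 of the 102 genes in the rat list, 61 of the 71 in the rabbit list and 12 of the 13 in the second-round list. A gene's own distance from a TSS made little difference to the share in the rat list, which was 35.8% of the 257 genes farther away and 30.3% of the 33 genes within 500 bp. In the rabbit list these shares were 25.3% and 18.2%, and in both lists the interval of the smaller group, 15.6 to 48.7 and 6.98 to 35.5, spans the value of the larger.

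The peaks that also lay at a protein-coding TSS included the strong one at CG30389, whose fold enrichment was 6.78, 4.81 and 5.55 in the rat, rabbit and second-round w1118 lists. In the rat list it was within 500 bp of Trp-CCA-2-3 alone, at a distance of 479 bp, whereas the wider rabbit peak also reached Gly-GCC-1-12 and Trp-CCA-2-4. Other such rat peaks lay at CG9003 (beside Arg-TCT-1-1 and Met-CAT-1-1), at CG30122 (beside Trp-CCA-2-2 and Gly-GCC-1-9), and at CG8036 (beside Tyr-GTA-1-6, Tyr-GTA-1-7 and Tyr-GTA-1-8). At these places the peak lists do not tell which of the genes a peak belongs to.

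Away from protein-coding TSSs, tRNA genes were compared with other non-coding genes at more than 500 bp from a TSS. A rat peak was within 500 bp of the gene start at 89 of 257 tRNA genes (34.6%, interval 28.8 to 40.8), at 29 of 239 small nucleolar RNA genes (12.1%, interval 8.28 to 17.0) and at 12.5% of 2431 genes of the class ncRNA. In the rabbit list the values were 24.9%, 9.21% and 6.62%. The 27 small nuclear RNA genes, which encode parts of the spliceosome, had more rat peaks than tRNA genes, at 66.7% (interval 46.0 to 83.5), but a similar share of rabbit peaks, at 25.9%. Ribosomal RNA genes, of which 99 were annotated on the arms, stood at 26.3% and 8.08%. In the second-round w1118 list tRNA genes stood at 4.67% (interval 2.44 to 8.01), small nucleolar RNA genes at 0.837% and the class ncRNA at 3.00%. In the first round, tRNA genes counted gene by gene therefore had a higher share than small nucleolar RNA and ncRNA genes with both antibodies. The interval of the ribosomal RNA genes in the rat list, 17.9 to 36.1, took in the tRNA value. Ribosomal RNA genes share peaks too, as their 17 overlaps with rat peaks came from 9 peaks. Their interval is therefore also too narrow. In the second round the tRNA interval took in the value of ncRNA genes. This comparison was chosen after the values were seen. The 76 single tRNA genes showed no clear excess in this share over small nucleolar RNA and ncRNA genes. Over the whole gene, at any distance from a TSS, 13.2% had a rat peak (interval 6.49 to 22.9) and 2.63% a rabbit peak (interval 0.320 to 9.18). Measured alike, small nucleolar RNA genes stood at 12.6% and 11.9%, and ncRNA genes at 19.1% and 13.1%. The rat interval of the single tRNA genes took in the values of these classes, and the rabbit interval lay below them. With each cluster or single gene counted once, tRNA genes stood at 31.2% and 18.8%, but a cluster takes in more sequence.

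**Figure D1:**
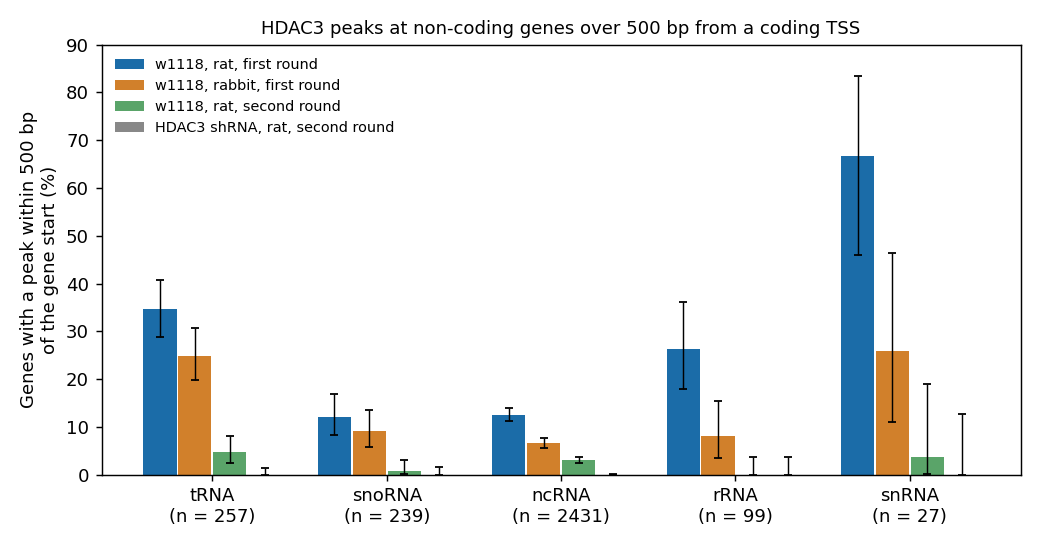
Share of non-coding genes more than 500 bp from a protein-coding TSS that had an HDAC3 peak within 500 bp of the gene start (y axis, %), by class of gene (x axis, with the number of genes) and peak list (colours). Bars show the share and lines the 95% exact binomial interval; tRNA genes stood at 34.6% with the rat and 24.9% with the rabbit antibody, and no class had one in HDAC3 shRNA embryos.

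Covered bases gave a comparison that does not depend on the number of genes. Peaks of the rat list covered 27995 of the 233330 bases within 500 bp of a tRNA gene, against 2.48% of the arms. The rabbit peaks covered 7.12% of these bases against 1.40% of the arms, and the second-round w1118 peaks 1.06% against 0.510%. Around small nucleolar RNA genes the rat, rabbit and second-round peaks covered 6.18%, 4.43% and 1.23%, which is less than around tRNA genes in the first-round lists and more in the second-round list. With bases within 500 bp of a protein-coding TSS left out, the values were 12.3% against 1.62% for the rat list, 6.79% against 0.601% for the rabbit list and 1.19% against 0.335% for the second-round list, where small nucleolar RNA genes stood at 0.799%.

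The strength of the peaks at tRNA genes was near that of the list in the first-round rat library and higher in the second-round list, which held few. Their median fold enrichment was 3.86 in the rat list (range 2.56 to 7.13), against 3.71 for all rat peaks. In the rabbit list it was 4.16 (range 3.34 to 6.92), against 3.85. In the second-round w1118 list the 8 peaks had a median of 4.64 (range 3.04 to 6.26), against 3.71. Above their list's median were 31 of 50 rat, 20 of 29 rabbit and 6 of 8 second-round peaks, and the strongest 10% of each list held 5, 4 and 4 of them. The peaks were wider than usual in the first round, with a median of 563 bp against 396 bp in the rat list and 594 bp against 403 bp in the rabbit list, but not in the second, with 416 bp against 498.5 bp.

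**Figure D2:**
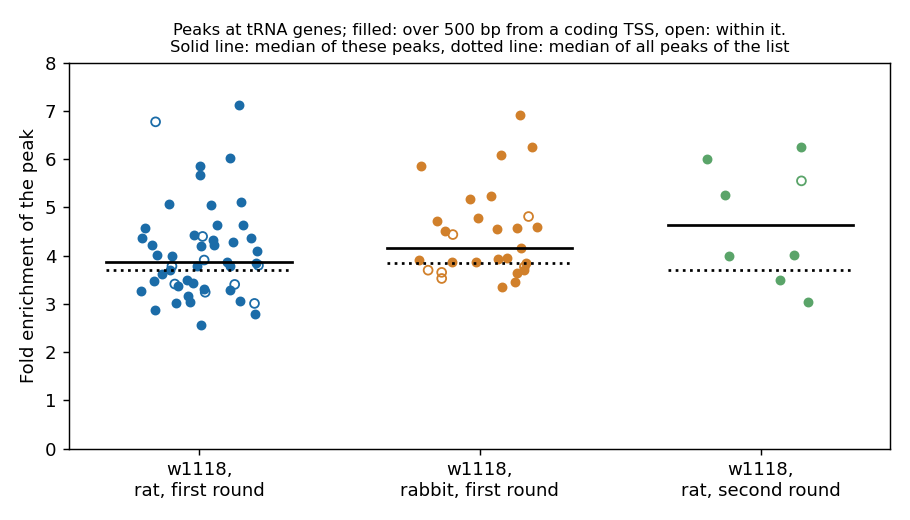
Fold enrichment over local background (y axis) of each distinct peak within 500 bp of a tRNA gene, for the 3 w1118 lists (x axis); each point is 1 peak, filled when more than 500 bp from a protein-coding TSS and open otherwise, and the sideways scatter has no meaning. The solid line is the median of the points, 3.86, 4.16 and 4.64, and the dotted line that of all peaks of the list, 3.71, 3.85 and 3.71.

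Both antibodies marked many of the same tRNA genes. A peak was present with both at 64 genes, with the rat antibody alone at 38, with the rabbit antibody alone at 7 and with neither at 181. Of the genes with a rat peak 62.7% (interval 52.6 to 72.1) also had a rabbit peak, against 63.2% of all genes with a rat peak. In the other direction, 90.1% (interval 80.7 to 95.9) of tRNA genes with a rabbit peak also had a rat peak, against 75.0% of all genes with a rabbit peak. Counted as peaks, 27 of the 50 rat peaks at tRNA genes were overlapped by a rabbit peak (54.0%, interval 39.3 to 68.2), against 40.2% of all rat peaks, and 27 of the 29 rabbit peaks by a rat peak (93.1%, interval 77.2 to 99.2), against 71.0% of all rabbit peaks. Away from protein-coding TSSs the rat value was 51.2% (interval 35.1 to 67.1) at tRNA genes and 23.4% for the other rat peaks.

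The larger number in the rat list went with its length. When the rat and the rabbit list were cut to the 1038 peaks of highest fold enrichment, the length of the second-round w1118 list, a peak remained at 15 tRNA genes for the rat and at 33 for the rabbit antibody, against 13 in the second-round list. These were 5.17%, 11.4% and 4.48% of the 290 genes. The antibody with more tRNA genes therefore changed with the number of peaks considered. The share of all genes in the shortened lists is not given here, so these counts are not a result about tRNA genes in particular.

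The genes marked by 1 antibody alone included groups with the same amino acid. Proline tRNA genes had a rat peak at 7 of 17 and a rabbit peak at 1 of 17. Glutamine tRNA genes had a rat peak at 4 of 12 and a rabbit peak at 0. Both Ser-TGA genes had the same rat peak, with a fold enrichment of 3.63, and no rabbit peak. The rabbit peak without a rat peak that was within 500 bp of most genes lay on the X chromosome, at a fold enrichment of 4.50, where it overlapped Arg-TCG-1-1 and Ser-AGA-3-2 and was 270 bp from Ser-CGA-1-3; the nearest protein-coding TSS to these genes is that of a Stellate repeat gene over 41 kb away. These genes were singled out after their values were seen, and neighbours among them share peaks.

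The second round gave fewer tRNA genes. Of the 13 with a peak in its w1118 list, 11 also had a rat peak in the first round (84.6%, interval 54.6 to 98.1), against 95.1% of all genes with a second-round peak, and 9 had a peak with all of the w1118 libraries. Of the 102 genes with a first-round rat peak, 10.8% (interval 5.51 to 18.5) had a second-round peak, against 20.8% of all genes with a rat peak. Counted as peaks there was no such gap, since 8 of the 50 rat peaks at tRNA genes (16.0%, interval 7.17 to 29.1) were overlapped by a second-round peak, against 16.3% of all rat peaks. Away from protein-coding TSSs these values were 17.1% and 12.7%. Of the 8 second-round peaks at tRNA genes 7 were overlapped by a first-round rat peak (87.5%), against 91.9% of all second-round peaks.

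The second-round peaks lay at leucine, alanine, lysine, arginine and tryptophan tRNA genes. The highest fold enrichment was that of the peak over Leu-CAG-1-2, Leu-CAG-1-3 and Leu-CAG-1-4 on 3L, at 6.26, which placed it above 98.9% of its list. The same genes had 4.63 in the first-round rat list and 4.16 in the rabbit list. Fold enrichment is relative to each library's own background, so only the place within a list can be read from it. That place was above 79.4% of the rat peaks and above 64.5% of the rabbit peaks.

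The peak over Ala-TGC-2-1, which also lay within 500 bp of Ala-TGC-1-1, the other gene with this anticodon, was above 98.4% of the second-round peaks, at 6.01. Its values were 5.85 with the rat and 5.86 with the rabbit antibody in the first round. The peak over Leu-AAG-1-3 had 6.03, 6.92 and 5.26 in the rat, rabbit and second-round lists, and was the strongest of the rabbit peaks at tRNA genes. Its neighbour Leu-AAG-1-2 had weaker peaks of 4.32 in the rat and 3.99 in the second-round list and none in the rabbit list.

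A pair of peaks lay among the 4 Lys-TTT-2 genes between Dfd and Scr, Hox genes of the Antennapedia complex, more than 25 kb from the nearest protein-coding TSS. Here the genes are arranged in convergent pairs, and the peaks did not touch the genes but lay in the space that their 3′ ends face. Between Lys-TTT-2-1 and Lys-TTT-2-2 the fold enrichment was 4.22 with the rat and 5.25 with the rabbit antibody. Between Lys-TTT-2-3 and Lys-TTT-2-4 it was 5.06 and 5.18, and 3.04 in the second round, above only 4.14% of its list. The gaps from gene to first-round peak were 187 to 314 bp.

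The other second-round genes were Arg-TCG-2-3 and Arg-TCG-2-4, which lie in pyd, a gene for a protein of the cell junction, and Arg-ACG-1-1. The peak between both Arg-TCG-2 genes had a fold enrichment of 3.50, and a first-round rat peak of 3.49 reached into Arg-TCG-2-4. Arg-TCG-2-3 and Arg-ACG-1-1, whose peak of 4.02 lay 492 bp away, had no peak in the first round.

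None of the 13 genes with a second-round w1118 peak had a peak in HDAC3 shRNA embryos, which with so few genes allows a share of up to 23.1%. Over all genes on the arms, 17 of 1179 with a second-round w1118 peak kept one in HDAC3 shRNA embryos, or 1.44%, a value below that limit. The HDAC3 shRNA peaks were also absent from the 102 genes with a first-round rat peak, which shared 50 rat peaks. Of all 6129 first-round rat peaks on the arms, 14 (0.228%) were overlapped by an HDAC3 shRNA peak. A count of 0 at 50 peaks cannot be told from that share.

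The strongest peaks of the first round that were away from protein-coding TSSs included the initiator methionine genes, whose tRNA starts every protein. The peak between iMet-CAT-1-4 and iMet-CAT-1-5, inside the gene ome, reached a fold enrichment of 7.13 with the rat antibody, the highest at any tRNA gene, and 6.26 with the rabbit antibody. It was absent from the second-round w1118 list. Another peak, with 4.38 and 4.58, overlapped iMet-CAT-1-2 and Glu-TTC-1-4 and lay within 500 bp of iMet-CAT-1-1. Both antibodies thus gave a peak at 4 of the 6 initiator genes, and iMet-CAT-1-3 and iMet-CAT-2-1, which are single, had none. By comparison, 1 of 6 elongator methionine genes had a peak with each antibody, and 35.2% of all tRNA genes had a rat and 24.5% a rabbit peak. Each initiator peak was counted for a pair of initiator genes. The 6 initiator genes lay at only 4 separate places, counted as clusters or single genes, and the 6 elongator genes at 6. With so few places, no difference between both kinds can be read from these counts.

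Other strong rat peaks lay over Ser-CGA-1-4, Val-AAC-2-1 and Val-AAC-2-2 inside hts, an adducin gene (5.67 with the rat and 3.87 with the rabbit antibody), near Asp-GTC-1-11 inside Esyt2 (5.11 and 4.60) and at Arg-TCG-2-1 on the X chromosome (5.07 and 3.96). The peak at the divergent Phe-GAA-1-4 and Phe-GAA-1-5 was above 94.8% of the rabbit peaks, with a fold enrichment of 6.10, and above 71.1% of the rat peaks, with 4.28. The single gene for selenocysteine tRNA had no peak.

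Clustered tRNA genes had peaks more often than single ones. With the rat antibody 92 of 214 clustered genes had a peak (43.0%, interval 36.3 to 49.9) and 10 of 76 single genes (13.2%, interval 6.49 to 22.9). With the rabbit antibody 69 clustered genes had one (32.2%, interval 26.0 to 39.0) and 2 single genes (2.63%, interval 0.320 to 9.18). All 13 genes with a second-round w1118 peak were clustered. The single genes with a rabbit peak were Asp-GTC-1-11 and Phe-GAA-1-2, the latter beside the TSS of the ribosomal protein gene RpL17.

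A clustered gene can be counted through a peak at its neighbour, so clusters were also counted once each. A rat peak was present in 35 of 68 clusters (51.5%, interval 39.0 to 63.8), and in 19 of these every gene had one. A rabbit peak was present in 25 of 68 clusters (36.8%, interval 25.4 to 49.3). A cluster also takes in more sequence than a single gene, which the share of covered bases does not depend on. Rat peaks covered 16.1% of the bases within 500 bp of clustered genes and 4.47% of those within 500 bp of single genes, and rabbit peaks 10.4% and 0.999%. Away from protein-coding TSSs, the values were 16.5% and 4.64% for the rat list and 10.2% and 0.769% for the rabbit list, where the arms stood at 1.62% and 0.601%. Around single genes the rabbit list was therefore near the level of the arms and the rat list above it.

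In the first round the share was also higher in larger clusters and far from promoters. In clusters of at least 4 genes 46.9% of 96 genes had a rat peak and 40.6% a rabbit peak, and in clusters of 2 to 3 genes 39.8% and 25.4% of 118. In the second-round list the order was the other way, at 5.21% and 6.78%. Genes inside a protein-coding gene had a rat peak in 32.1% and a rabbit peak in 15.7% of 134 cases, and genes outside one in 37.8% and 32.1% of 156. At over 10000 bp from a protein-coding TSS the rat and rabbit shares were 45.8% and 42.4% of 59 genes, which came from 24 clusters and single genes. They were 32.1% and 17.9% of 106 genes between 2000 and 10000 bp, and 33.7% and 22.8% of 92 genes between 500 and 2000 bp. The second-round shares were 3.39%, 4.72% and 6.52% in the same order of distance. These groupings overlap, and their separate parts were not tested.

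The 10 clusters of at least 5 genes ranged from none to nearly all genes with a peak. Among both clusters of 11 genes, the one on 2R from 6161535 to 6171759, with 4 Lys-CTT, 3 Arg-ACG, 3 Asn-GTT and an Ile-AAT gene, had no peak in any list. The one on 3R from 17617761 to 17631750, with alanine, proline, threonine and valine genes, had 5 genes with a rat peak and 3 with a rabbit peak, all at the end that holds Val-CAC-1-1, Pro-TGG-1-1, Ala-AGC-2-2, Pro-TGG-1-2 and Ala-AGC-2-3. The remaining 6 genes of the cluster had none.

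The cluster of 6 Glu-CTC-3 genes on 3L, from 1397695 to 1401852, and that of 5 glutamine genes on 2L, from 2009155 to 2013250, had no peak in any list. In contrast, 1 rat peak of 4.22 and 1 rabbit peak of 3.64 were each within 500 bp of 5 of the 6 genes of the Cys-GCA-1 and Lys-CTT-1 cluster on 3L, from 3095737 to 3097590. On 3R, from 8139533 to 8141042, Asn-GTT-1-10 and its Arg-ACG-1 neighbours had peaks of 4.00 and 3.84, within 500 bp of 5 of 6 genes. In the cluster of 7 isoleucine and leucine genes on 2R, 6 had a rat peak and 4 a rabbit peak, and in that of iMet-CAT-1, Glu-TTC-1 and Glu-CTC-2 genes 5 and 6 did. Of the 7 arginine and serine genes on the X chromosome, from 14014814 to 14017284, 3 had a peak with each antibody. The Leu-CAG-1 cluster on 3L, from 8060214 to 8068290, was the only one of the 10 with a second-round peak, at 3 of its 6 genes.

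**Figure D3:**
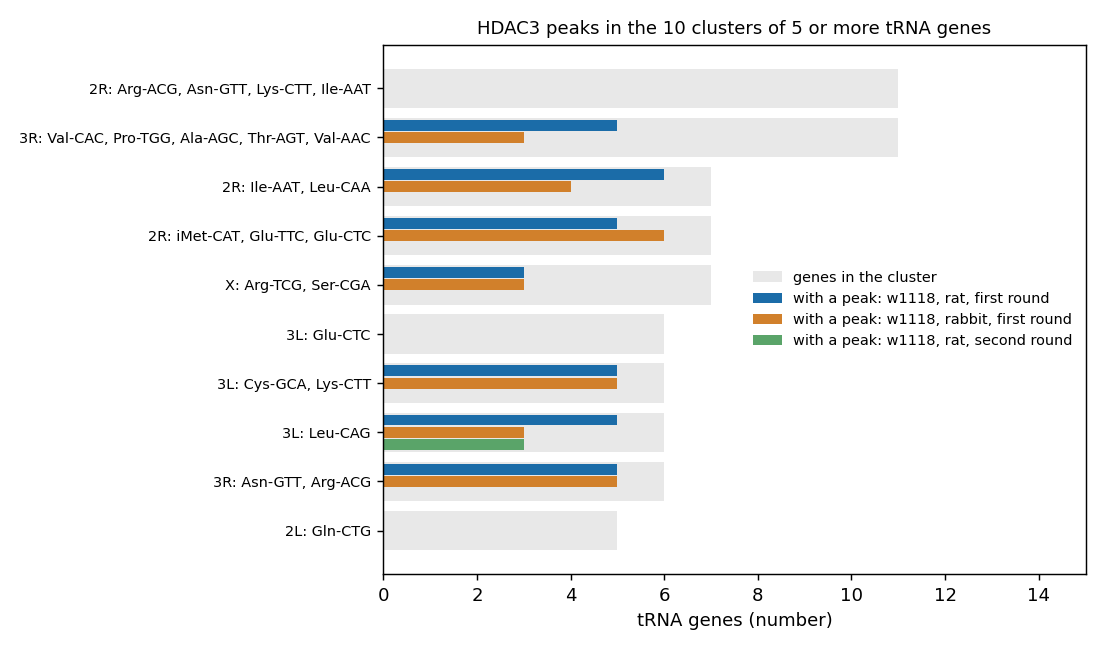
Number of tRNA genes (x axis) in each of the 10 clusters of at least 5 genes (y axis, with the chromosome arm and the amino acids and anticodons) and how many of them had an HDAC3 peak within 500 bp in the 3 w1118 lists. The grey bar is the size of the cluster and the coloured bars the genes with a peak; the clusters of 11, 6 and 5 genes with no coloured bar had no peak in any list.

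Identical genes differed in their peaks. Of the 43 sequences with at least 2 copies, 27 had a rat peak at some but not all of the copies, 14 at none and 2 at all. For the rabbit antibody the numbers were 24, 16 and 3. Lys-CTT-1 and Gly-GCC-1, with 13 copies each, had a peak at 2 copies with each antibody. Asp-GTC-1, with 12, had one at 4 with the rat and 2 with the rabbit antibody, and Ala-AGC-2, with 11, at 4 with each. Of the sequences with at least 5 copies, 4 of 24 had no peak with either antibody, and these were Glu-CTC-3 (9 copies), Thr-AGT-1 (7), Val-CAC-2 (6) and Gln-CTG-2 (5). Copies with the same sequence thus differed in whether a peak was called within 500 bp of them. Such a peak can also lie at a neighbouring gene, and what the difference depends on was not tested.

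Whether a gene had identical copies went with little difference in the rat list, where 35.3% of 238 genes with a copy and 34.6% of 52 without one had a peak. In the rabbit list these shares were 26.5% (63 genes) and 15.4% (8 genes). Reads from identical genes cannot be told apart within the gene, and how the mapping treated them is not given in the sources used here. The part of this in the counts was not tested.

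**Figure D4:**
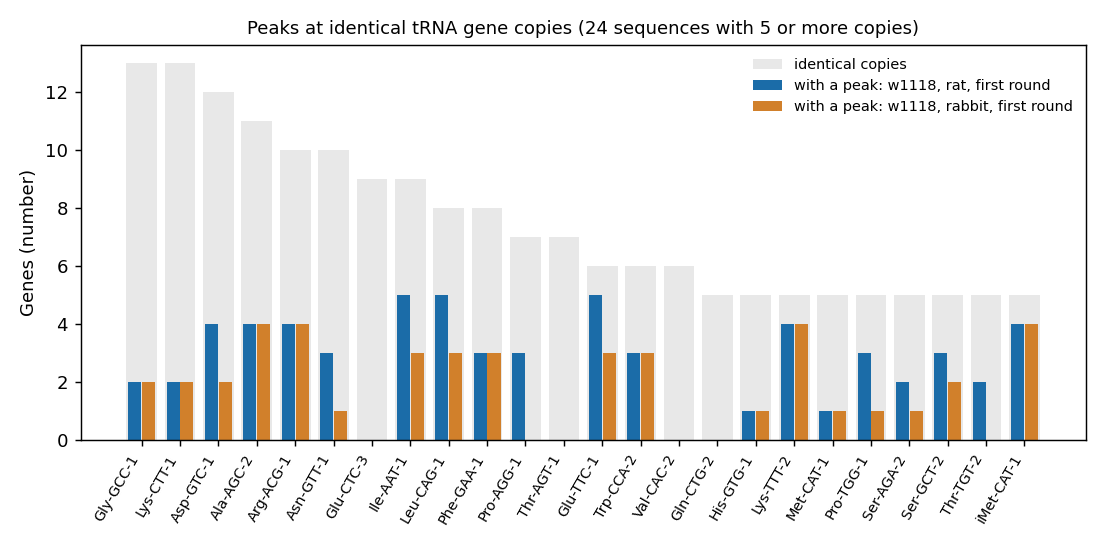
Number of genes (y axis) for each of the 24 tRNA gene sequences with at least 5 identical copies (x axis, by amino acid, anticodon and sequence number). Grey bars are all copies and coloured bars those with an HDAC3 peak within 500 bp in the first-round rat and rabbit lists; no sequence had a rat peak at every copy, and 4 had a peak at none with either antibody.

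By amino acid, peaks were found at nearly every type. At least 1 gene had a rat peak for 21 of the 22 isotypes (the amino acids, with initiator methionine and selenocysteine counted apart) and a rabbit peak for 20. Among isotypes with over 10 genes the largest share was that of serine in the rat list, with 11 of 20 genes, and that of alanine in the rabbit list, with 9 of 17; the other antibody gave 9 of 20 for serine and 9 of 17 for alanine. Glycine had the smallest of these in the rat list, with 2 of 20 genes in each list. By anticodon, all 3 Ala-CGC and all 3 Thr-CGT genes had a peak with both antibodies, each set from 1 cluster, and none of the 8 Thr-AGT and 6 Gly-TCC genes had one with either. As genes of an isotype often lie in 1 cluster, these counts rest on few separate places. Of the 226 genes with GGTTCGA or GGTTCAA 35.4% had a rat peak and 24.3% a rabbit peak, and of the 64 with neither 34.4% and 25.0%. In the second-round list these shares were 5.31% and 1.56%, the latter from 1 gene (interval 0.0396 to 8.40).

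Peaks often ended inside the tRNA gene. Of all edges of rat peaks, 35 fell inside a tRNA gene, 6 in the stretch of the same length on its 5′ side and 9 in that on its 3′ side. For the rabbit list the numbers were 26, 7 and 6, and for the second-round w1118 list 4, 1 and 0. At the 269 small nucleolar RNA genes the rat numbers were 8 inside, 6 on the 5′ side and 6 on the 3′ side, and the rabbit numbers 7, 1 and 2. At ribosomal RNA genes 15 rat edges were inside and 3 and 0 in the neighbouring stretches. The region printed above is an example, with an edge of both peaks in each gene.

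Genes with an identical copy had 30 of the 35 rat edges, at 84 genes with a peak, and genes without one had 5, at 18 genes with a peak. In the rabbit list these were 22 edges at 63 genes and 4 edges at 8 genes. Edges inside the gene were thus present in both kinds. Loss of reads over repeated sequence was not tested.

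**Figure D5:**
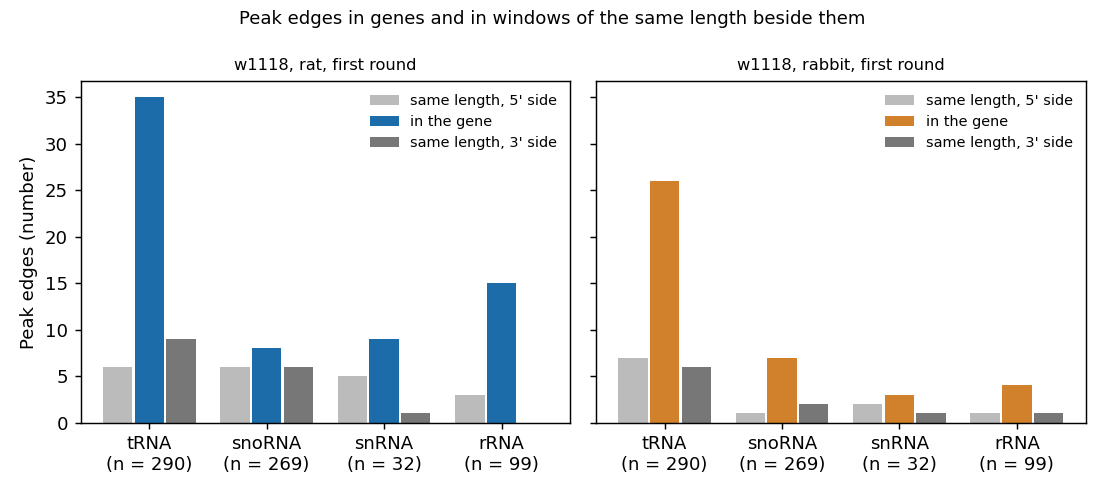
Number of HDAC3 peak edges (y axis) inside genes and in stretches of the same length directly on the 5′ and 3′ sides, for tRNA genes and for small nucleolar, small nuclear and ribosomal RNA genes (x axis, with the number of genes), in the first-round rat (left) and rabbit (right) lists. At tRNA genes 35 rat and 26 rabbit edges fell inside the gene, against 6 to 9 in each neighbouring stretch.

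Over all genes with a first-round peak, both flanks were covered about as often. Within 300 bp of the gene, rat peaks covered more of the 5′ flank at 43 genes, more of the 3′ flank at 35 and as much of both at 24. For the rabbit list these were 30, 29 and 12. Genes with no other tRNA gene within 1000 bp had more of the 3′ flank covered, at 10 against 5 of 17 genes in the rat list and 6 against 0 of 6 in the rabbit list. In the second-round list the 3′ flank was covered more at 6 and the 5′ flank at 1 of 13 genes. Where a rat peak overlapped a gene with an edge inside it, the peak ran out on the 5′ side in 25 of 35 cases, and in the rabbit list in 14 of 25. Among the 116 pairs of neighbouring tRNA genes at most 1000 bp apart, rat peaks covered at least 50% of the space in 9 of 25 divergent, 26 of 69 tandem and 5 of 22 convergent pairs (36.0%, 37.7% and 22.7%), and the interval of the last, 7.82 to 45.4, takes in the others.

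Among the motifs searched, only GGTTCGA was placed relative to the tRNA genes, and most peaks with it held the match inside such a gene. The letters GGTTCGA were searched on both strands, and were present in 18 of 50 rat peaks at tRNA genes (36.0%) against 4.68% of all rat peaks, and in 15 of 29 rabbit peaks (51.7%) against 4.50%. The match lay inside a tRNA gene in 17 of these rat and 13 of these rabbit peaks. These peaks were picked for lying near tRNA genes, of which 145 of 290 carry the letters. The higher share than in all peaks therefore follows from the choice of peaks and is not a separate result. GAGAG, the letters bound by GAGA factor, was present in 46.0% of rat peaks at tRNA genes, against 59.3% of all rat peaks, although the former were wider, and in 55.2% against 56.7% in the rabbit list. CAGGTAG, bound by the zygotic activator Zelda, was in 2 of 50 rat peaks at tRNA genes (4.00%) against 11.6% of all rat peaks. In the rabbit list it was in 1 of 29 (3.45%) against 7.80%. TATCGATA, bound by DREF, was in 2 of 50 (4.00%) against 3.51% in the rat list and in 3 of 29 (10.3%) against 7.48% in the rabbit list. In both lists each of these peaks at tRNA genes lay within 500 bp of a protein-coding TSS. For CAGGTAG and TATCGATA the counts are too small for a difference to be read from the shares. A match to such letters does not show that the factor is bound.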

How the data were processed

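CUT&Tag peak lists for HDAC3 in 2- to 4-h-old embryos were used, 1 per library. Per the methods and labels, Trim Galore!, Bowtie2 (dm6), MACS2 and ChIPseeker served the authors for trimming, mapping, peak calling and annotation; versions, calling options, any control library and the handling of reads with several positions are not given in the sources used here. The deposited lists hold, per peak, a score (not used), a ratio (fold enrichment over local background) and the −log10 of the p- and q-value. Fold enrichment was compared within lists only. The lists carry no read counts, so depth is unknown and the intervals (exact binomial, 95%) cover counting error only.

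Gene models were from Ensembl release 115 for assembly release 6 (dm6 coordinates), without transposable element genes, and sequences from the RefSeq copy of the assembly. The class of microRNA precursors planned as a comparison had no genes under that name. Distances were 500 bp and clusters joined genes at most 5000 bp apart. The tools were scipy 1.17.1 for intervals, matplotlib 3.10.9 for figures, and pandas 2.3.3 and numpy 2.4.6 under Python 3.11.15 for the rest. On simulated data, the search for peaks near genes gave the same result as a brute-force search in all 40 sets. With 1 library per combination no test was run. The genes named are those with a second-round peak, the 10 genes with the strongest first-round peak per antibody away from protein-coding TSSs, members of clusters of at least 5 genes, and initiator and selenocysteine genes; others are named as examples of counts and were chosen after their values were seen. The members, lists and alternatives were chosen with earlier results of these data known. Covered bases, non-coding genes away from TSSs and peak edges in neighbouring stretches were added after seeing the data. The alternatives covered the distance, the q-value, the length of the lists, the counting of clusters, the TSS window, the overlap, the round and the gap that joins clusters.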

Additional observations from a re-analysis of the deposited data

How the results depend on the processing

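Of 65 alternative values, 48 stayed within 1.5 times the reported count or within the interval of the reported share. A −log10 q of at least 3 left 67 tRNA genes in the rat list, 39 in the rabbit list and 8 in the second-round w1118 list. Clusters counted once gave 45, 27 and 7 of 144. Lists of equal length gave 15 for the rat and 33 for the rabbit antibody. Overlap of the gene itself gave 47 genes in the rabbit and 6 in the second-round list. With a TSS window of 1000 bp, 14 rat, 10 rabbit and 2 second-round peaks at tRNA genes were near a protein-coding TSS, and with the stricter q 4 rat and 2 rabbit peaks. Taking the rat list of the second round, 9 genes had a peak with both antibodies. Counting only peaks over 500 bp from a protein-coding TSS, an alternative added after seeing the data, gave 34.1% of clustered genes in the rat list. Each setting by its construction counts fewer peaks or genes, or a wider window, and no other cause was tested. The HDAC3 shRNA count was 0 in each setting run. No paired analysis was possible because there is 1 library per combination and no test was run.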

Other observations

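The mitochondrial genome carries its own tRNA genes, which are not bound to nuclear chromatin and were left out above. Of its 22 tRNA genes, 5 were overlapped by a first-round rat peak, 4 by a rabbit peak, 0 by a second-round w1118 peak and 3 by an HDAC3 shRNA peak. The fold enrichment of peaks on the mitochondrial genome was 1.70 to 2.10 in the rat list, 1.49 to 2.12 in the rabbit list, 2.44 to 3.10 in the second-round w1118 list and 2.40 to 3.19 in the HDAC3 shRNA list.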
